A study of Mus musculus with 2 samples.

Results

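Transcripts of 9 genes of the cytotoxic granule, *Gzma*, *Gzmb*, *Gzmk*, *Gzmc*, *Gzmm*, *Prf1*, *Nkg7*, *Ctsw* and *Srgn*, were followed through the lymphocytes of the lupus-prone mouse kidney. The genes were chosen by symbol and all 9 were found among the 31053 genes of both libraries. Their unique molecular identifiers (UMIs) were counted in 6 kinds of cells gated by marker genes. The young library held 138 CD8 T cells, 108 CD4 T cells, 135 double-negative T cells, 60 cells of a *Trdc* gate, 175 NK cells and 1036 group 2 innate lymphoid cells (ILC2s) among 11429 kept cells. The old library held 1132, 1116, 1389, 39, 222 and 290 of these cells among 10232.

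The study followed kidney ILC2s during the spontaneous lupus of MRL-*lpr* mice, and the scRNA-seq data are 1 library from pooled kidneys of young mice and 1 from pooled kidneys of old mice. Both groups carried the *lpr* allele of the receptor gene *Fas* on the MRL background, and the MRL background strain without it was not analysed here. The study's methods give female mice of 5–8 weeks as young and over 16 weeks as old. Leukocytes were enriched by density, then innate lymphoid cells by magnetic beads, and live cells were sorted, so shares of cells in a library are not frequencies in the kidney. With 1 library per age no variation between mice could be estimated, no test was run, and all intervals below cover counting error only.

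Cytotoxic lymphocytes kill by releasing granules onto a target cell. Perforin, the product of *Prf1*, opens the target membrane to the granzymes, serine proteases that *Gzma*, *Gzmb*, *Gzmk*, *Gzmc* and *Gzmm* encode, and serglycin, the product of *Srgn*, is the proteoglycan on which granule proteins are packed. *Nkg7* encodes a granule membrane protein that takes part in degranulation and *Ctsw* encodes the cathepsin of cytotoxic lymphocytes. Mice with the *lpr* allele accumulate T cells with an αβ receptor and neither CD4 nor CD8, the double-negative T cells.

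In GENCODE M21 on GRCm38 (mm10), *Gzma* lies on chromosome 13 from 113093825 to 113100981 and *Gzmk* on the same minus strand from 113171608 to 113225908, with 70.6 kb between them. *Gzmb* (chromosome 14, 56258838 to 56262260, minus strand) and *Gzmc* (56231441 to 56234656, minus strand) are separated by 24.2 kb. *Prf1* (61297833 to 61304680, plus strand), *Srgn* (62493833 to 62527451, minus strand) and *Gzmm* (79689020 to 79695261, plus strand) are on chromosome 10, *Nkg7* is on chromosome 7 (43437073 to 43438249, plus strand) and *Ctsw* on chromosome 19 (5465043 to 5468507, minus strand). All 9 are protein-coding genes. RefSeq promoters on GRCm38.p6 were matched for 8 of the 9, and 4 are printed because the results below turn on these genes: the neighbours *Gzma* and *Gzmk*, whose levels peaked in different gates, and *Gzmb* and *Prf1*, whose levels over gates and libraries were most alike among the members. Each line gives the 250 bases before the RefSeq start on the strand of the gene, 5′ to 3′. These are chr13:113100982-113101231 for *Gzma*, chr13:113180966-113181215 for *Gzmk*, which lies within the longer GENCODE gene, chr14:56262335-56262584 for *Gzmb* and chr10:61297586-61297835 for *Prf1*. Capitals mark the T-box half-site GTGTGA and the Runx site TGTGGT, searched on both strands, where the other strand reads TCACAC and ACCACA.
Gzma: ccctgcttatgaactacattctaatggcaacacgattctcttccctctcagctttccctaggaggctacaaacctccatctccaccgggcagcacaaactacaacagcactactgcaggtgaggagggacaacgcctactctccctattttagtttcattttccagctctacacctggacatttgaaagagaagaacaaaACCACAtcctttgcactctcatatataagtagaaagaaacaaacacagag
Gzmk: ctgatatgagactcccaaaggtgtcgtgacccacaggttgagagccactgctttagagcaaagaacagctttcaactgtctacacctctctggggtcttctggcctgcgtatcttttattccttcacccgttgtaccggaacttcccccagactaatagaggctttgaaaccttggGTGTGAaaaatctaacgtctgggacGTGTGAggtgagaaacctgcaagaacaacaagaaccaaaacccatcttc
Gzmb: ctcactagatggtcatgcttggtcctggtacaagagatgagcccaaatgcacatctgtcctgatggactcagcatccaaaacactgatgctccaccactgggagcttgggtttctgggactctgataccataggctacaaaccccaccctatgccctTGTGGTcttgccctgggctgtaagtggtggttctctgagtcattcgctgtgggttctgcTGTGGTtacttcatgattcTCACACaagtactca
Prf1: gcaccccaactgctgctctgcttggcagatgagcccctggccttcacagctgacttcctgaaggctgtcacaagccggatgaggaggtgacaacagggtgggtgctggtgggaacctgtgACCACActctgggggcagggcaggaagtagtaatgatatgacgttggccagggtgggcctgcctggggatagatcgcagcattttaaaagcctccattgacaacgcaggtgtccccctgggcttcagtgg
The *Gzmk* window held 2 T-box half-sites, at 74 to 69 and 49 to 44 bases before the start, and no Runx letters. The *Gzma* window held 1 Runx site at 50 to 45 bases before the start and *Prf1* 1 at 130 to 125. The *Gzmb* window held 2 Runx sites, at 93 to 88 and 34 to 29, and 1 T-box half-site at 15 to 10. Over all 32851 RefSeq promoter windows of this length, 12.3% held the T-box letters and 14.05% the Runx letters, so these matches are a description of the windows only.

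The deposited matrices held 156787812 young and 126334256 old UMIs over 15076 and 12622 barcodes, and the kept cells had medians of 7881 and 6933 UMIs. Among kept cells 26 barcodes occurred in both libraries, and doublets, 332 young and 270 old by Scrublet, stayed in. Of the young cells 50.8% and of the old cells 40.6% held Y-linked UMIs but none of *Xist*, and 14.6% and 29.1% the reverse, so the libraries do not match the female sex given in the methods and ratios within each kind of cell are given beside several ratios below. Lists of genes that no gate used bore out T cells as a whole, NK cells and ILC2s. No list was specific to CD8 or double-negative cells, so these gates were checked only as T cells. A list of T cell genes summed to 1363–3400 CPM, the UMIs of the genes scaled to 1e6 UMIs of the gate, in the 4 T cell gates against 838–871 CPM in NK cells, 395–407 CPM in ILC2s and 1.51–26.5 CPM in proximal tubule and B cells, and a list of NK genes to 3484 and 4613 CPM in the young and old NK gate. ILC2s had 2895 and 3738 CPM of a list of ILC2 genes, beside 98.0–808 CPM in the other lymphocyte gates. The *Trdc* gate, T cells with at least 2 UMIs of the δ chain gene and none of *Trac*, did not match its label in the old library: its γδ list fell short of its NK list there (324.5 against 2162 CPM), *Cd163l1* had no UMI, and 10 of its 39 cells held *Ncr1*. It is therefore named by its rule. A list of 2 CD4 T cell genes reached 142 and 131 CPM in double-negative cells against 238 and 249.5 CPM in CD4 cells, and CD4 T cells without a *Cd4* UMI cannot be told apart in this gate. CD8 T cells without a coreceptor UMI cannot be told apart in the double-negative gate either. Tubule RNA moved with age in every gate: *Kap*, *Miox* and *Gpx3* summed to 2953–3493 CPM in the 6 young gates and 977–1401 CPM in the old, which equals 4.51–5.33% and 1.69–2.42% of a gate's UMIs at the level of proximal tubule cells. UMIs of the macrophage genes *Lyz2* or *Csf1r* were found in 1.45–5.93% of cells of the young gates and 4.96–8.13% of the old, and their part in the age differences was not tested.

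NK cells held the highest level of *Gzma* in both libraries, and the gene was near background in ILC2s. The level in NK cells was 5940.3 CPM in the young library (95% interval 5776–6108) and 13065 CPM in old cells (12879.5–13253). CD8 cells had 864 CPM (799.5–932) young, where 1 cell held 227 of the 667 UMIs, and 716 CPM (698–735) old, and double-negative cells had 93.0 and 171 CPM. In CD4 cells 1 young UMI amounted to 1.62 CPM, beside 208.5 CPM old. The old *Trdc* gate reached 4648 CPM against 566 young. ILC2s had 1.78 and 1.25 CPM, beside 0.709 and 1.47 CPM in proximal tubule cells and 1.33 and 3.46 CPM in B cells, so the ILC2 level could not be told from free RNA.

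*Gzmb*, whose product cleaves caspases in the target cell, was also highest in NK cells. NK cells had 881 CPM young (819–948) and 1629.5 CPM old (1564–1697). CD8 cells had 351 CPM (310.4–395) and 769 CPM (749.6–788). The *Trdc* gate had 60.4 CPM young (36.4–94.3) and 1257 CPM old (1121–1405), above CD8 cells in the old library. Of these 310 old UMIs 268 lay in 10 cells with *Ncr1*. CD4 and double-negative cells lay lower, with 8.08 and 136 CPM and with 26.0 and 136 CPM, and their old intervals overlapped. ILC2s had no *Gzmb* UMI in 1036 young cells, which allows up to 0.533 CPM and a UMI in up to 0.290% of cells at this depth, and 5 UMIs in 290 old cells.

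*Gzmk*, which encodes a trypsin-like granzyme, was a T cell transcript in this kidney and nearly missing from NK cells. CD8 cells had 120 CPM young (97.2–147.5) and 279 CPM old (267–290.3), CD4 cells 21.0 and 141 CPM, and double-negative cells 10.9 and 122 CPM. In NK cells only 1 young and 3 old UMIs were counted. *Gzmm* was likewise highest in CD8 cells, at 25.9 and 63.9 CPM, while NK cells had no UMI in the young library, which allows 3.61 CPM, and 4.86 CPM in the old. *Gzmc*, one of the granzymes that lie in a row with *Gzmb*, had 33 UMIs in 8 old CD8 cells, 1 in young CD8 cells and at most 2 in any other gate. Of the 33, 13 lay in 1 cell. Only 24.7% of the 146 old and 20% of the 15 young *Gzmc* UMIs of kept cells lay in the 6 gates. Of its relatives *Gzmd*, *Gzme*, *Gzmf*, *Gzmg* and *Gzmn*, none had 100 UMIs in any comparison.

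**Figure D1:**
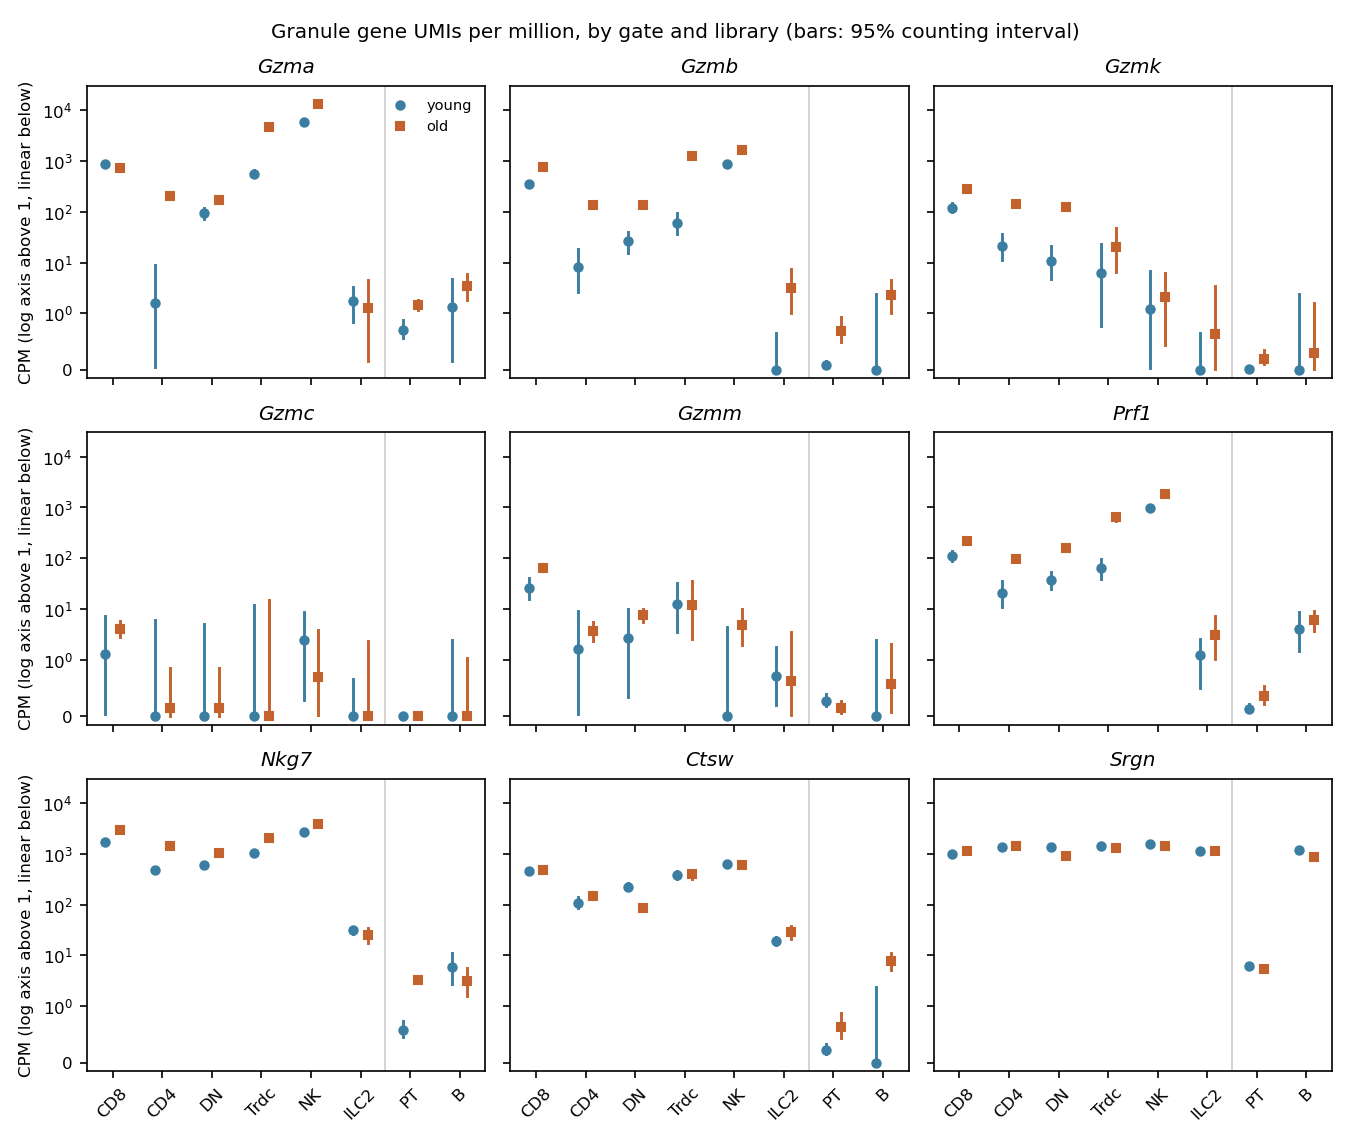
CPM (vertical axis, log above 1 and linear below) of the 9 granule genes in the 6 lymphocyte gates and in proximal tubule (PT) and B cells, young circles and old squares, with exact Poisson 95% intervals; DN is the double-negative gate. *Gzma*, *Gzmb* and *Prf1* peaked in NK cells, *Gzmk* and *Gzmm* in CD8 cells, and *Srgn* stood between 876 and 1597 CPM in every gate but PT.

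*Prf1* was again highest in NK cells, at 958 CPM young (893–1027) and 1802 CPM old (1734–1873). CD8 cells had 111 and 222 CPM. The *Trdc* gate had 63.6 CPM young (38.8–98.2) and 649 CPM old (552–758), the highest of the 4 T cell gates in the old library. Of its 160 old UMIs 141 lay in 10 cells with *Ncr1*. Without cells holding *Ncr1*, *Klrb1c* or *Klre1*, a choice made after seeing the data, it was at 131 CPM old (76.2–209) and CD8 cells at 208 CPM. Double-negative cells had 36.9 and 159 CPM, and CD4 cells 21.0 and 94.8 CPM, with separate intervals in the old library. *Nkg7* was more broadly spread over the T cells, at 1748 and 2977 CPM in CD8 cells, 485 and 1458 CPM in CD4 cells, 609 and 1046 CPM in double-negative cells and 2662 and 3941 CPM in NK cells. ILC2s had 31.4 and 25.0 CPM of *Nkg7*, above the 0.582–5.97 CPM of the background cells, in 4.73% and 4.14% of cells.

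*Ctsw* and *Srgn* had the flattest patterns over age. *Ctsw* was found at 627 and 598 CPM in NK cells and at 451 and 492 CPM in CD8 cells, and it was lower in CD4 cells, at 110 and 146 CPM. Double-negative cells were the exception to this steadiness, with 226 CPM young (193–263) and 86.4 CPM old (79.5–93.8). *Srgn* did not mark cytotoxic cells here: its levels were 979–1597 CPM in the young gates and 926–1439 CPM in the old, and B cells had 1220.4 and 876 CPM against 6.32 and 5.31 CPM in proximal tubule cells.

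The share of cells behind these levels was compared after each cell was thinned to 1000 UMIs. *Gzma* was seen in 38.5% of young NK cells (exact Clopper-Pearson 95% interval 31.2–46.2%) and 72.2% of old NK cells (65.7–78.1%), and unthinned in 40.0% and 74.8%. CD8 cells did not show this: the thinned shares were 13.0% (7.92–19.8%) and 12.8% (10.9–14.9%). For *Gzmb* the share of CD8 cells was 18.1% (12.1–25.6%) young and 29.3% (26.6–32.1%) old. *Gzmk* was seen in 16.7% (10.9–24.0%) and 25.7% (23.2–28.4%) of CD8 cells, intervals that overlap, and in 1.85% (0.225–6.53%) and 11.2% (9.40–13.2%) of CD4 cells. *Prf1* was seen in 35.6% (28.5–43.2%) and 61.1% (54.3–67.7%) of NK cells and in 4.55% (1.69–9.63%) and 13.5% (11.8–15.5%) of double-negative cells. No thinned share of these 4 genes exceeded 0.472% in B or proximal tubule cells, where the unthinned shares reached 6.98%.

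**Figure D2:**
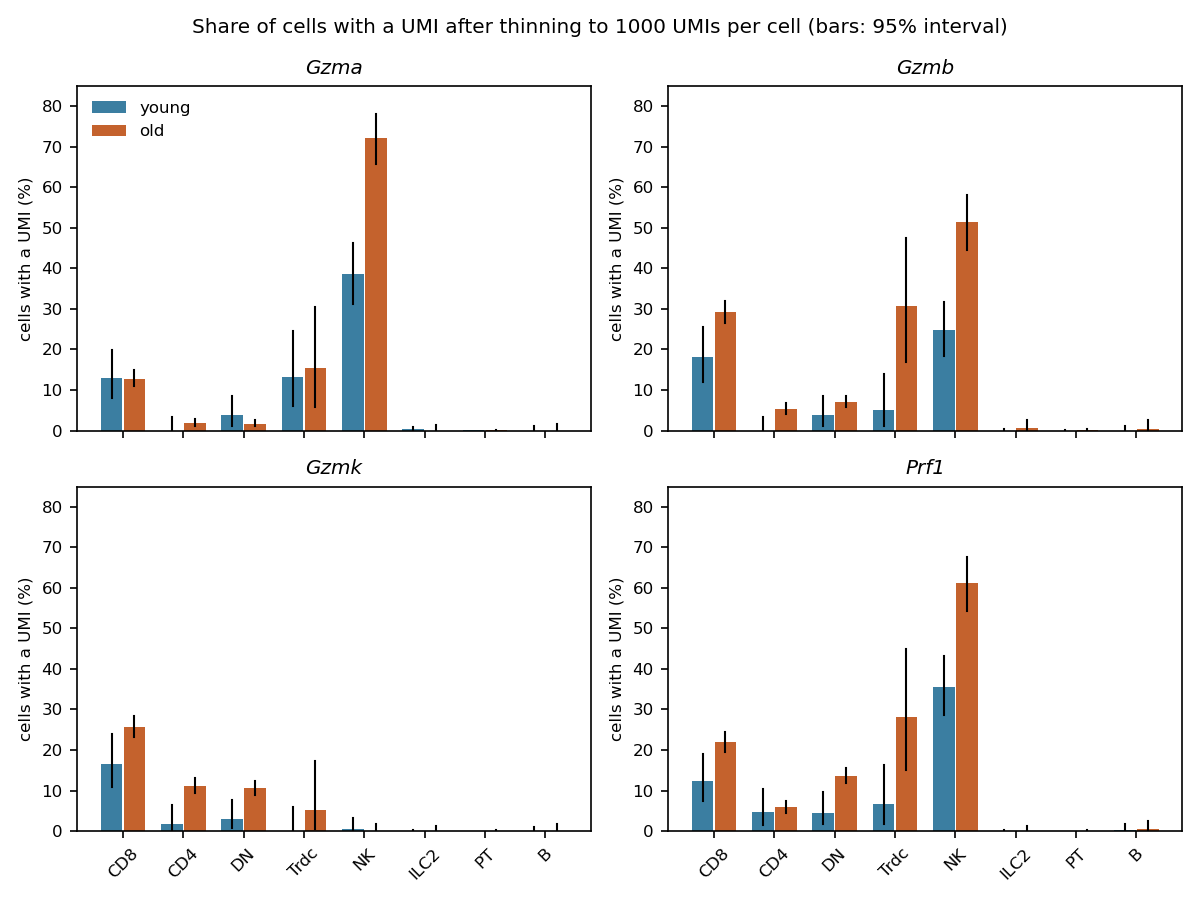
Percentage of cells with a UMI of *Gzma*, *Gzmb*, *Gzmk* or *Prf1* after thinning to 1000 UMIs per cell, young and old bars with exact Clopper-Pearson 95% intervals, over the 6 gates and the PT and B cells. For *Gzma* the NK bars stand at 38.5% and 72.2% and the CD8 bars at 13.0% and 12.8%.

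A granzyme and perforin transcript together, the pair that killing needs, was commonest in NK cells. In thinned cells any of the 5 granzymes was seen with *Prf1* in 27.6% of young NK cells (21.1–34.9%) and 56.5% of old NK cells (49.6–63.2%). The shares were 6.52% (3.03–12.02%) and 11.7% (9.87–13.7%) in CD8 cells, 1.52% (0.184–5.37%) and 3.79% (2.84–4.93%) in double-negative cells, and 0.926% (0.0234–5.05%) and 2.53% (1.69–3.63%) in CD4 cells. The *Trdc* gate had 3.33% (0.406–11.5%) and 17.9% (7.53–33.5%). In thinned cells the intervals of the ages overlapped in all 4 T cell gates, and without thinning they were separate in all 4. The unthinned shares were 23.9% (17.1–31.9%) and 59.5% (56.6–62.4%) in CD8 cells and 1.85% (0.225–6.53%) and 15.1% (13.1–17.4%) in CD4 cells. Double-negative cells had 2.96% (0.813–7.41%) and 22.3% (20.15–24.6%), and the *Trdc* gate 11.7% (4.82–22.6%) and 41.0% (25.6–57.9%). Unthinned shares also depend on depth. In ILC2s no thinned cell held both among 1020 young and 285 old cells, which allows UMIs of the pair in up to 0.294% and 1.05% of cells and does not limit how many express it.

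*Gzma* was seen more often in cells with *Gzmb* than in cells without it, in both NK and CD8 cells. Of thinned NK cells with *Gzmb*, 95.3% in the young and 99.1% in the old library also held *Gzma*. Among NK cells without *Gzmb* the shares were 19.85% and 43.8%. Of CD8 cells with *Gzmb*, 36.0% and 26.8% held *Gzma*, against 7.965% and 6.94% of those without it. CD8 cells with both *Gzmb* and *Gzmk* made up 5.797% of young and 9.29% of old cells, those with *Gzmb* alone 12.3% and 20%, and those with *Gzmk* alone 10.9% and 16.4%. *Gzma* was seen in 15.97% of old CD8 cells with *Gzmk* and in 11.7% of those without it. In double-negative cells *Gzmk* without *Gzmb* was seen in 1.52% and 9.32% of cells and both genes in 1.52% and 1.24%.

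Whole libraries were compared as log2 ratios of CPM, old over young, for genes with at least 100 UMIs in a gate, and a member was counted when it differed by at least 2-fold. In CD8 cells 3 of the 8 members with enough UMIs were at least 2-fold higher in the old library and none was 2-fold lower, where 5.09% of all 7190 genes were higher and 1.24% lower. These were *Gzmb* with a log2 ratio of 1.13 (0.96–1.31), *Gzmk* with 1.21 (0.91–1.53) and *Gzmm* with 1.30 (0.66–2.03). *Prf1* lay just under the line at 0.99 (0.68–1.32) and *Nkg7* at 0.77 (0.69–0.85), while *Gzma* had −0.27 (−0.39 to −0.15). The *Gzma* sign rested on 1 young cell with 227 UMIs: without the cell with most UMIs in each library, a choice made after seeing the data, the levels were 581 and 685 CPM and the log2 ratio 0.24 (0.10–0.38). The members had a median of 0.88 and all genes one of 0.08. Within cells with Y-linked UMIs alone the *Gzmb* ratio was 1.20, and within cells with *Xist* alone it was 0.51 from 14 young cells. *Gzma* had −0.0027 (−0.17 to 0.17) in the former and −1.55 in the latter, which held the young cell with 227 UMIs. *Gzmm* was under 2-fold in cells with Y-linked UMIs alone, at 0.73 (0.06–1.49).

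The ages also differed in the share of CD8 cells with UMIs of both *Ccr7* and *Lef1*. *Ccr7* encodes a chemokine receptor of naive and central memory T cells, and *Lef1* a transcription factor of naive T cells. Cells with UMIs of both genes, a definition made after the data were seen, were 31.2% of young (23.6–39.6%) and 8.13% of old CD8 cells (6.60–9.87%). In the young library they held 4 *Gzmb* UMIs (14.9 CPM) and no *Gzmk* UMI, which allows 11.2 CPM. Old cells with both genes had 122 and 68.3 CPM. *Gzmm* was higher in them than in the remaining CD8 cells, at 44.75 against 15.9 CPM young and 177 against 47.25 CPM old. Its log2 ratios were 1.98 (1.14–2.96) with both genes and 1.57 (0.58–2.80) without. *Nkg7*, *Ctsw* and *Srgn* were at 563, 287 and 705 CPM in young cells with both genes, against 2379, 538 and 1125 CPM in the remaining ones. Among the remaining CD8 cells *Gzmb* was at 529.7 CPM young and 864 CPM old, a log2 ratio of 0.71 (0.53–0.89), and *Gzmk* at 184.5 and 309.6 CPM, a ratio of 0.75 (0.45–1.06). *Gzma* in these cells was at 1246 CPM young and 786 CPM old, and without the cell with most UMIs in each library at 819 and 751 CPM, a log2 ratio of −0.12 (−0.27 to 0.03). Median depth was 6247 UMIs young and 10203 UMIs old in CD8 cells with both genes, and 4598 and 5754.5 UMIs in the remaining ones. The part of depth in this split was not tested. How much of the CD8 difference the share of *Ccr7* and *Lef1* cells accounts for was not tested. Cycling cells, with at least 3 UMIs of 5 cell cycle genes, had *Gzma* at 314 CPM in 67 old CD8 cells, against 778 CPM in the remaining ones. The 7 young cycling cells held 243 *Gzma* UMIs, 227 of them in 1 cell.

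In CD4 cells 5 of 7 members were at least 2-fold higher in the old library and none lower, beside 5.66% of 6737 genes that were higher and 1.8% lower. *Gzmk* had a log2 ratio of 2.74 (1.96–3.66), *Prf1* of 2.17 (1.39–3.09), *Nkg7* of 1.59 (1.42–1.76) and *Gzmb* of 4.07 (2.84–5.70), the last from 5 young UMIs. The *Gzma* ratio of 7.01 (4.53–12.3) rested on 1 young UMI. Most old *Gzma* of this gate lay in few cells. With a limit of 10 UMIs, set after the values were seen, 12 of 1116 old CD4 cells (1.08%) held 94.0% of the *Gzma* UMIs and 8 of these 12 held *Ncr1*, the NK receptor gene. These 12 cells had a median of 12006.5 UMIs against 5173.5 in the gate, and none was called a doublet. Of the 12, 8 held the NK list gene *Tyrobp*, 8 the T cell list gene *Cd5* and 7 had at least 2 coreceptor UMIs. Whether these were single T cells was not tested further. Without T cells that held UMIs of *Ncr1*, *Klrb1c* or *Klre1*, a choice also made after seeing the data, *Gzma* was at 1.72 CPM young and 32.6 CPM old, *Gzmb* at 8.60 and 95.5 CPM, *Gzmk* at 22.4 and 141 CPM and *Prf1* at 13.8 and 56.1 CPM. The unthinned share of old CD4 cells with any *Gzma* UMI was 4.12%, beside 5.12% of old B cells, and the thinned shares were 1.90% (1.18–2.89%) and 0% (0–1.73%). Within cells with Y-linked UMIs alone the CD4 ratios were 2.74 for *Gzmk*, 2.11 for *Prf1* and 1.30 for *Nkg7*, and within cells with *Xist* alone *Nkg7* had 3.24 from 16 young UMIs.

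The CD4 gate also held regulatory cells, and its share of cells with *Ccr7* and *Lef1* differed between the ages. Cells with UMIs of both genes were 40.7% of young (31.4–50.6%) and 5.38% of old CD4 cells (4.13–6.87%), and their part in the difference was not tested. Their median depth was 5229.5 UMIs young and 6977.5 UMIs old, against 4136 and 5103 UMIs in the remaining ones. Among the remaining CD4 cells *Gzmk* was at 36.9 CPM young and 146 CPM old, a log2 ratio of 1.98 (1.20–2.90), and *Nkg7* at 805 and 1520.2 CPM, a ratio of 0.92 (0.75–1.09). The 72 old CD4 cells with a UMI of *Foxp3*, the transcription factor of regulatory T cells, had 31.0 CPM of *Gzmk* against 150 CPM in the others, and 38.8 against 144 CPM of *Gzmb*. *Prf1* was at 19.4 and 101 CPM and *Gzma* at 1.94 and 226 CPM in the same cells.

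Double-negative cells showed members on both sides. Of 7 members 3 were at least 2-fold higher in the old library and 1 was 2-fold lower, where 10.5% of 6998 genes were higher and 3.77% lower. *Gzmk* had a log2 ratio of 3.47 (2.49–4.69) from 8 young UMIs, *Gzmb* of 2.39 (1.74–3.13) and *Prf1* of 2.10 (1.55–2.71). *Ctsw* was the member on the lower side, at −1.39 (−1.64 to −1.13), and *Srgn* was also lower at −0.56 (−0.66 to −0.47). Genes of other lymphocytes were lower in old double-negative cells as well: the γδ list was at 148 and 23.1 CPM, the ILC2 list at 435 and 98.0 CPM, and *Fcer1g*, a signalling chain of NK and innate cells, was found in 17.0% and 2.59% of cells. The NK list as a whole was at 427 and 646.5 CPM, of which *Eomes* made up 23.2 and 529 CPM, and the part of these cells in the ratios was not tested. *Gzma* was at 0.88 (0.53–1.26), but 11 of 1389 old cells held 95.3% of its UMIs, 5 of them with *Ncr1*, and 2 of 135 young cells held 70.6% of the 68 young UMIs. Without the cell with most UMIs in each library the ratio was 1.49 (0.98–2.05), past 2-fold. Without cells holding the 3 NK genes *Gzma* was at 83.4 CPM young and 17.0 CPM old, where 1 young cell held 36 of 53 UMIs. In the same cells *Gzmk* was at 12.6 and 122 CPM and *Prf1* at 20.5 and 138 CPM. Cells with *Xist* alone made up 18.5% of young and 53.6% of old double-negative cells, so the ratios were also taken within each kind: *Gzmb* had 2.56 in cells with Y-linked UMIs alone and 4.25, from 1 young UMI, in cells with *Xist* alone. *Prf1* had 1.86 and 2.17, and *Ctsw* −1.16 and −2.42.

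Among the 5 gates with 100 UMIs of *Gzmb* and *Prf1*, the *Trdc* gate gave the largest age ratios of both, and these transcripts lay in cells with NK genes. The intervals overlapped those of CD4 cells for both genes and of double-negative cells for *Prf1*. Of 6 members 3 were at least 2-fold higher in the old library, and none lower, where 2.74% of 804 genes were higher and 2.24% lower, with log2 ratios of 3.04 (2.81–3.27) for *Gzma*, 4.38 (3.71–5.13) for *Gzmb* and 3.35 (2.68–4.10) for *Prf1*. Of the 1146 old *Gzma* UMIs, 99.9% lay in 7 cells, all 7 with *Ncr1*. Without cells holding the 3 NK genes 39 young and 26 old cells remained and none of the members that still had 100 UMIs was past 2-fold: *Gzma* had 1 UMI in each library, *Gzmb* was at 23.5 and 30.8 CPM and *Prf1* at 14.1 and 131 CPM, the last from 3 young and 17 old UMIs, too few to be counted.

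In NK cells 1 of 6 members, *Gzma*, was at least 2-fold higher in the old library and none lower, beside 1.34% of 3506 genes that were higher and 1.83% lower. Its log2 ratio was 1.14 (1.09–1.18). *Prf1* had 0.91 (0.80–1.03), *Gzmb* 0.89 (0.77–1.01) and *Nkg7* 0.57 (0.49–0.64). *Ctsw* lay at −0.07 (−0.23 to 0.09) and *Srgn*, on the lower side, at −0.19 (−0.29 to −0.09). The *Gzma* ratio was 1.38 in cells with Y-linked UMIs alone and 1.24 in cells with *Xist* alone. *Gzmb* had 1.27 and 0.48 and *Prf1* 1.18 and 0.48 in these cells, so both were past 2-fold in the former.

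The NK gate was called by *Ncr1* and so also holds group 1 innate lymphoid cells. It was split by UMIs of *Eomes*, a T-box factor that NK cells carry and group 1 innate lymphoid cells largely lack. *Eomes* was at only 102 CPM young and 181 CPM old in this gate, so a cell without its UMI can still express it. The split therefore does not separate NK cells from group 1 innate lymphoid cells. Among the young cells 26.9% (20.4–34.1%) held *Eomes* UMIs, and among the old cells 47.7% (41.0–54.5%). Cells with *Eomes* had high levels at both ages: *Gzma* was at 11863 CPM young and 14534 CPM old, a log2 ratio of 0.29 (0.23–0.35), and *Gzmb* was at 2218 and 1650.5 CPM, a ratio of −0.43 (−0.57 to −0.28). Cells without an *Eomes* UMI had larger ratios of *Gzma*, *Gzmb* and *Prf1*. They had 3464 and 11282 CPM of *Gzma*, a ratio of 1.70 (1.63–1.78), and 322 and 1604 CPM of *Gzmb*, a ratio of 2.31 (2.09–2.55). *Prf1* was at 593.5 and 1583 CPM, a ratio of 1.42 (1.24–1.59). *Ctsw* was at 371 and 572 CPM in cells with *Eomes*, a ratio of 0.62 (0.30–0.97). Without an *Eomes* UMI it was at 733 and 630 CPM, a ratio of −0.22 (−0.42 to −0.02). Median depth was 4236.5 UMIs young and 5397 UMIs old in cells without *Eomes*, and the part of depth in this split was not tested.

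**Figure D3:**
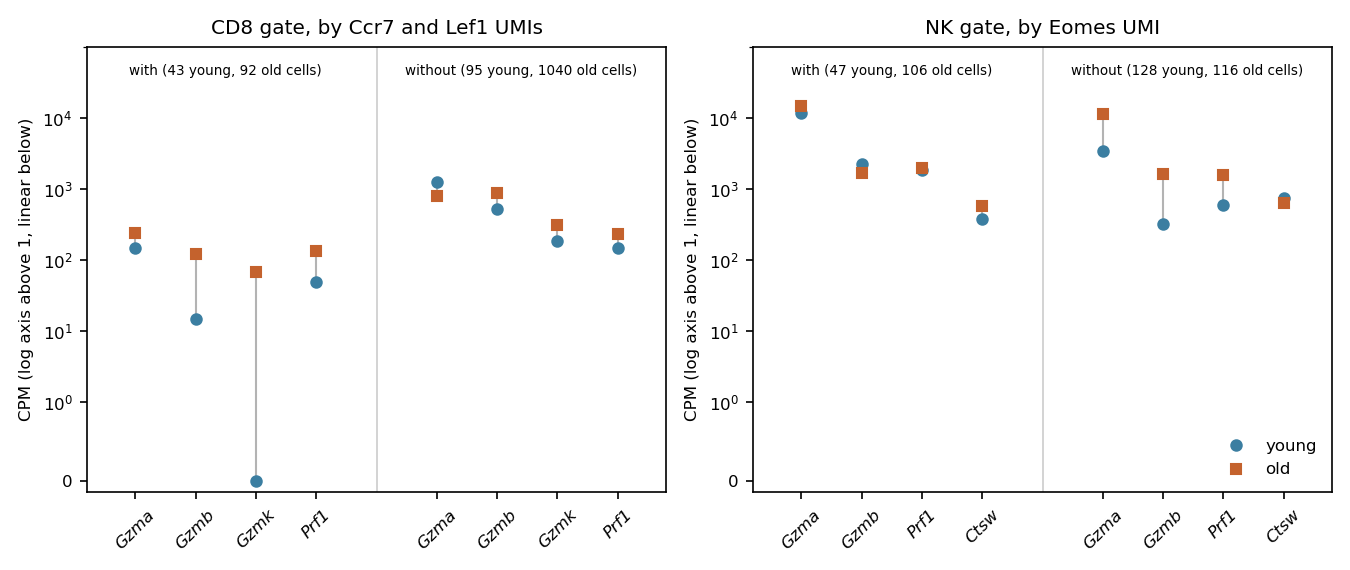
CPM (log above 1, linear below) of 4 granule genes in CD8 cells with and without UMIs of both *Ccr7* and *Lef1* (left) and in NK gate cells with and without an *Eomes* UMI (right), young circles joined to old squares, 1 library per age and no error bars. In NK cells with *Eomes*, *Gzma* stands at 11863 and 14534 CPM, *Gzmb* at 2218 and 1650.5 CPM and *Ctsw* at 371 and 572 CPM. In those without it *Gzma* stands at 3464 and 11282 CPM.

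ILC2s had 3 members with enough UMIs, *Nkg7*, *Ctsw* and *Srgn*, and 0 of 3 differed by 2-fold, where 1.63% of 6936 genes were higher and 1.83% lower. Their log2 ratios were −0.33 (−0.86 to 0.17), 0.56 (0.03–1.07) and 0.06 (−0.02 to 0.13), and without the cell with most UMIs in each library *Ctsw* had 0.18. Of *Gzma*, *Gzmb*, *Gzmk*, *Gzmm* and *Prf1*, none exceeded 3.13 CPM in either library.

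**Figure D4:**
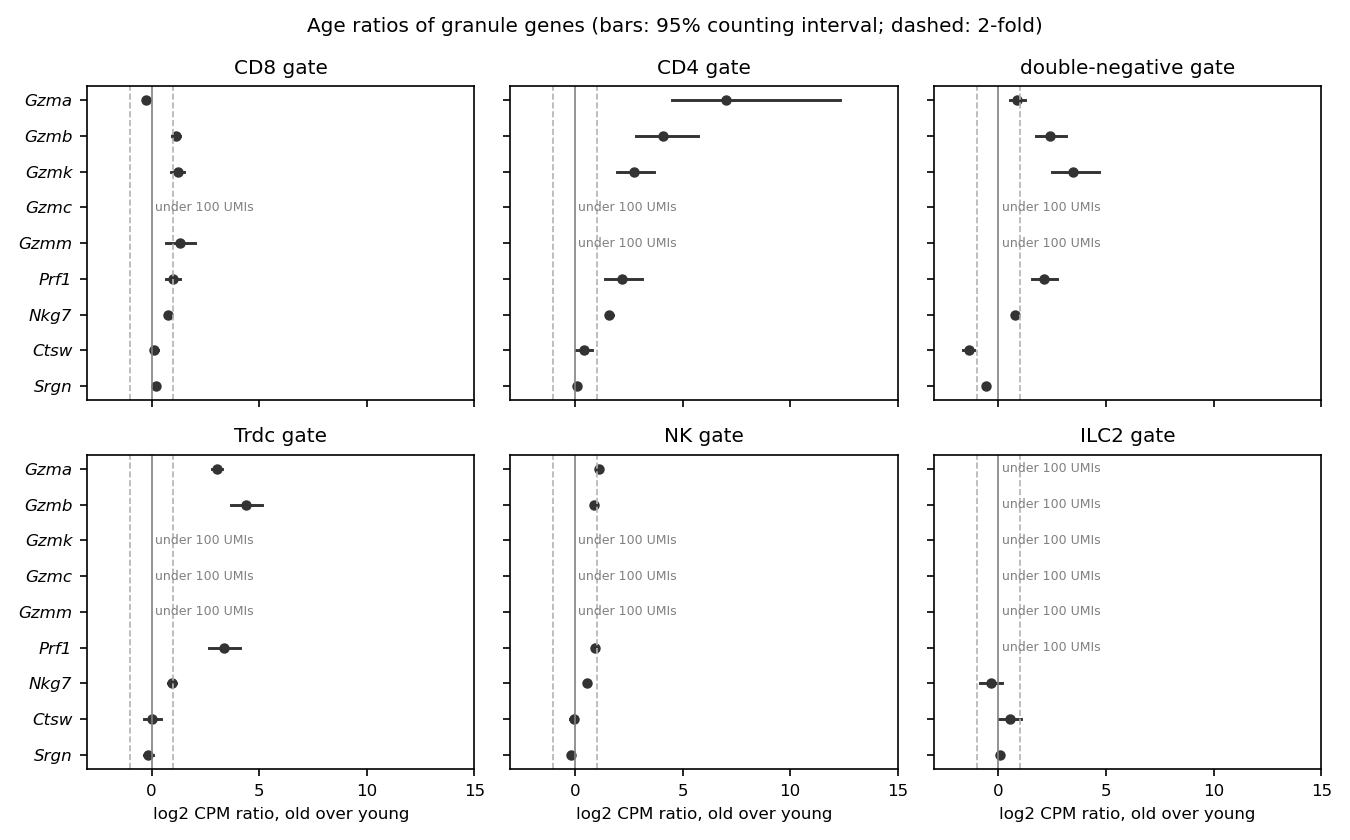
Log2 CPM ratio, old over young (horizontal axis), of each granule gene in the 6 gates, points with exact binomial 95% intervals, dashed lines at 2-fold; members with under 100 UMIs have no point. The largest ratio, 7.01 for *Gzma* in CD4 cells, rests on 1 young UMI, and *Ctsw* in double-negative cells is the only member past 2-fold on the lower side.

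Compared within a library, CD8 cells stood above CD4 cells for most of the granule. In the young library 5 of 6 members were at least 2-fold higher in CD8 cells and none lower, where 1.39% of 1949 genes were higher and 1.44% lower. In the old library 6 of 8 were higher and none lower, where 2.14% of 8495 genes were higher and 2.83% lower. The old CD8 over CD4 ratios were 4.12 (3.53–4.78) for *Gzmm*, 2.50 (2.40–2.61) for *Gzmb*, 1.78 (1.69–1.87) for *Gzma*, 1.75 (1.65–1.86) for *Ctsw* and 1.23 (1.09–1.36) for *Prf1*. *Gzmk* was the granzyme nearest to equal between them, at 0.98 (0.87–1.10), and *Srgn* was lower in CD8 cells, at −0.36 (−0.40 to −0.32).

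Double-negative cells stood at least 2-fold below CD8 cells for 5 of 7 members in the young library and above them for none, where 1.0% of 2190 genes were lower and 2.56% higher. Old double-negative cells stood below for 6 of 8 and above for none, where 3.72% of 8596 genes were lower and 6.89% higher. In the old library *Gzmm* had a log2 ratio of −3.10 (−3.55 to −2.68), *Ctsw* of −2.51 (−2.64 to −2.38) and *Gzmb* of −2.50 (−2.60 to −2.39). *Prf1* was the closest granule effector, at −0.48 (−0.59 to −0.37), and *Gzmk* was at −1.19 (−1.31 to −1.08).

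NK cells were at least 2-fold above CD8 cells for 3 of 6 members in the young library and below them for none, where 7.54% of 2479 genes were higher and 2.06% lower. Old NK cells were above for 3 of 8, where 4.71% of 7427 genes were higher. The same 3 genes were counted in both, *Gzma*, *Gzmb* and *Prf1*, with young ratios of 2.78 (2.66–2.90), 1.33 (1.13–1.53) and 3.11 (2.78–3.44). In the old library 2 members were at least 2-fold lower in NK cells, beside 5.68% of genes: *Gzmk* with 3 UMIs against 2253, a log2 ratio of −7.06 (−9.34 to −5.51), and *Gzmm* at −3.72 (−5.04 to −2.67).

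Other genes of the granule pathway, from lists set down with earlier results of these data known, were mostly within 2-fold in CD8 cells. Of 12 genes of granule maturation, transport and release, 1 of 12 was at least 2-fold higher in old CD8 cells, *Cst7*, the inhibitor of the cathepsins that activate granzymes, at 93.2 and 228 CPM (log2 1.29, 0.95–1.65). Of 8 transcription factors with enough UMIs 1 was higher, *Eomes*, at 38.9 and 210 CPM (2.43, 1.91–3.01). None of 3 protease inhibitors and neither of the death ligands *Fasl* and *Tnfsf10* passed 2-fold, beside 5.09% of all genes higher and 1.24% lower.

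In double-negative cells these lists held genes on both sides. *Eomes* was at 23.2 CPM young and 529 CPM old (log2 4.51, 3.83–5.29), *Tcf7*, a factor of naive and memory T cells, at 171 and 418 CPM (1.29, 1.03–1.56), *Cst7* at 39.7 and 244 CPM (2.62, 2.09–3.20), *Stx11*, a syntaxin of granule fusion, at 9.57 and 34.4 CPM (1.84, 0.78–3.18) and *Serpinb6a* at 32.8 and 78.7 CPM (1.26, 0.67–1.92). Lower in the old library were *Lyst*, which governs lysosome size, at 150.5 and 49.1 CPM (−1.61, −1.93 to −1.29), the granzyme B inhibitor *Serpinb9* at 46.5 and 21.0 CPM (−1.15, −1.70 to −0.56), *Serpinb6b* at 62.9 and 28.3 CPM (−1.15, −1.63 to −0.65) and *Id2* at 804 and 399 CPM (−1.01, −1.14 to −0.88). Counted by list, 2 of 12 release genes were higher and 1 lower, 1 of 3 inhibitors higher and 2 lower, and 2 of 8 factors higher and 1 lower, beside 10.5% of all genes higher and 3.77% lower in this gate.

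In NK cells *Prdm1*, a factor of effector differentiation, was the 1 of 8 factors past 2-fold, at 32.5 and 65.9 CPM (log2 1.02, 0.39–1.70), and *Lyst* the 1 of 10 release genes, lower at 183 and 63.9 CPM (−1.52, −1.91 to −1.13). Of 3 inhibitors none passed 2-fold, and 1.34% of all genes of this gate were higher and 1.83% lower. In CD4 cells 3 of 3 inhibitors, 3 of 8 factors, both death ligands and 1 of 12 release genes were at least 2-fold higher in the old library and none was lower, beside 5.66% of all genes higher and 1.8% lower.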

How the data were processed

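The authors aligned the reads to mm10 with Cell Ranger (3.1.0 per the file headers) and deposited UMI counts per gene and barcode without normalization, from 10x 3′ v3.1 libraries. Kept barcodes had 200 genes or more and no more than 20% mitochondrial UMIs. Cells were gated by fixed marker genes after cells with B, macrophage, neutrophil, tubule, basophil or plasmacytoid genes were left out, T cells needed at least 2 CD3 UMIs, and cells with both coreceptors, or with no coreceptor and no *Trac*, were not used. Members and lists were chosen with earlier results of these data known. Named were the 9 members everywhere, list genes past 2-fold in CD8, double-negative or NK cells, and the 3 genes most like each member by Pearson r, of which 1 is not reported here. CPM had exact Poisson, shares exact Clopper-Pearson and log2 ratios exact binomial 95% intervals, without tests. The ratios and their intervals were checked on simulated counts. Thinning used 1000 UMIs and seed 7. Software was SciPy 1.17.1, NumPy 2.4.6, Scanpy 1.11.5 (Scrublet), pandas 2.3.3 and Matplotlib 3.10.9 under Python 3.11.15. Alternatives changed the filters, gates, doublets, totals and thinning.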

Additional observations from a re-analysis of the deposited data

Results flagged for a closer look

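Several members lay on opposite sides of equal between gates in the comparison of old with young, each with an interval that did not include 0, and the difference between gates was not tested in any of them. *Gzma* had log2 ratios of 7.01 in CD4, 0.88 in double-negative, 3.04 in *Trdc* gate and 1.14 in NK cells against −0.27 in CD8 cells. Without the cell with most UMIs in each library the CD8 ratio was 0.24, so that sign rests on 1 young cell. The CD4 ratio rests on 1 young UMI. Without T cells holding *Ncr1*, *Klrb1c* or *Klre1*, double-negative *Gzma* was at 83.4 CPM young, with 36 of 53 UMIs in 1 cell, and 17.0 CPM old. The *Trdc* gate then had 1 *Gzma* UMI in each library, and CD4 cells 1.72 and 32.6 CPM. *Ctsw* had 0.41 in CD4 and 0.56 in ILC2 cells, against −1.39 in double-negative cells. Without the cell with most *Ctsw* UMIs in each library the ILC2 ratio was 0.18. *Srgn* had 0.20 in CD8 cells against −0.56 in double-negative and −0.19 in NK cells. With 1 library per age these signs rest on 2 libraries.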

How the results depend on the processing

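No paired analysis was possible because there was 1 library per age and the labels carry no replicate numbers, and for the same reason no replicate could be left out. Of 147 recomputed counts of members past 2-fold, 140 stayed within 1.5 times the value given and 7 did not. In NK cells the age count of 1 became 2 when CPM was averaged over cells, 3 in cells with Y-linked and no *Xist* UMIs and 0 where *Eomes* was also required. In the *Trdc* gate the count of 3 became 1 in cells with *Xist* and no Y-linked UMIs and 0 without T cells holding *Ncr1*, *Klrb1c* or *Klre1*, an alternative chosen after seeing the data. In the young library, cells with *Xist* and no Y-linked UMIs took the CD8 over CD4 count from 5 to 2 and the double-negative over CD8 count from 5 to 1. The fewer cells of these selections lower the number of genes that reach 100 UMIs, and other causes were not tested. Of 46 ratios past 2-fold, recomputed 542 times, all 542 kept their sign and 533 stayed past 2-fold. The 542 do not include ratios that had under 100 UMIs in an alternative. Among those left out were *Gzma*, *Gzmb* and *Prf1* in the *Trdc* gate without T cells holding *Ncr1*, *Klrb1c* or *Klre1*. There *Gzma* had 1 UMI in each library and *Gzmb* was at 23.5 CPM young and 30.8 CPM old, so neither stayed past 2-fold. *Prf1* had 3 young and 17 old UMIs there. Also left out were these genes in *Trdc* gate cells with *Xist* and no Y-linked UMIs, where each had 0 young UMIs. Of 972 recomputed ratios of any size 192 fell outside the 95% counting interval of the ratio given. Shares of cells with a UMI depend on depth: 166 of 324 recomputed shares fell outside the interval of the share at 1000 UMIs, 55 of 108 at 500 UMIs, 46 at 2000 UMIs and 65 without thinning. Intervals cover counting error only, and 60 young and 39 old *Trdc* gate cells set the least depth.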

Other observations

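Genes whose levels over the 12 combinations of 6 gates and 2 libraries were most like a member were ranked among 4620 genes by Pearson r of log2(CPM + 1), as a description over points that share a library, its depth and its free RNA. *Gzmb* was closest to *Dapk2* (0.97), *Prf1* (0.97) and the chemokine gene *Ccl5* (0.96), and *Prf1* to *Gzmb* (0.97), *Nod1* (0.96) and *Ubald2* (0.96). *Nkg7* was closest to *Ccl5* (0.99) and *Dusp2* (0.98). *Ctsw* went with the NK receptor genes *Klrd1* (0.99), *Klrc2* (0.98) and *Klrc1* (0.97). *Gzmk* was closest to *Zc3h12d* (0.93), the costimulatory receptor gene *Cd27* (0.91) and *Smad7* (0.91), and *Gzmm* to the integrin gene *Itgae* (0.85), *Ablim1* (0.85) and *Igf2r* (0.82). *Gzma* was closest to *Cap1* (0.96), *Samd3* (0.95) and *Chsy1* (0.95), and *Srgn* to *Ppp1r12a* (0.87), *Hcls1* (0.86) and *Glrx2* (0.85). *Gzmc*, with few UMIs, was closest to *Rabggtb* (0.82), *Med30* (0.80) and *Ciapin1* (0.79).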
